A study of Rattus norvegicus with 6 samples.

Results

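The genes described here are carriers that move amino acids and related small molecules across cell membranes, taken by symbol from 7 solute carrier families. The rule took rows named Slc1a, Slc3a, Slc6a, Slc7a, Slc36a, Slc38a or Slc43a with a number, left out the cystine carrier gene Slc7a11, and found 57 genes among 15679 rows. SLC1 gave 7 of them, SLC3 2, SLC6 18, SLC7 14, SLC36 4, SLC38 9 and SLC43 3. Not all move amino acids, since the SLC6 family also holds carriers of monoamines, betaine, taurine and creatine.

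RNA sequencing was done on glands of the pancreatic duct, small mucous pouches of the duct wall, cut out by laser after they were recognised by shape. The HIP group had 3 libraries (HIP30, HIP2 and HIP3) from Sprague-Dawley rats with a transgene for human islet amyloid polypeptide, described as pre-diabetic and used as a model of type 2 diabetes. The WT group had 3 libraries (WT26, WT1 and WT4) from wild-type rats of the same strain. The transgene of this model is known to be driven by an insulin promoter in beta cells, and the labels used here give no age or treatment. Whether libraries stand for separate animals is not said, so each p-value reflects variation among libraries that may be technical. The libraries set glands of pre-diabetic rats beside those of wild-type rats.

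Amino acid carriers work in distinct ways. Some couple uptake to sodium or protons, some swap an amino acid inside for another outside, and some let amino acids run down their gradient. The SLC3 proteins are heavy chains that bring SLC7 light chains to the cell surface, where the pair acts as an exchanger. In the exocrine pancreas these carriers supply the amino acids from which secreted proteins are made. Inside the cell, carriers of the lysosome also report amino acid supply to the growth kinase complex mTORC1.

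Libraries held 15141136 to 17574682 reads, and reads on the 57 genes made up 0.190% to 0.226% in HIP libraries and 0.176% to 0.191% in WT libraries. Of 15 listed markers of duct epithelium 12 had a usable row, and all 12 were read in every library. Their sums were 11832 to 14589 CPM in HIP libraries and 11848 to 28542 CPM in WT libraries. CPM is the usual read count relative to library size, scaled here by TMM factors, which correct for library composition, and it is not per length, so levels of different genes are not ranked. Other cell types differed between libraries of the same group. Of 12 listed beta cell markers 10 had a usable row. They summed to 35.9, 193 and 5086 CPM in HIP30, HIP2 and HIP3, against 12.7, 114 and 11373 CPM in WT26, WT1 and WT4. The 14 proliferation markers summed to 98.7, 534 and 3159 CPM in the HIP libraries, with 10 of them at 0 reads in HIP30, against 2532, 3524 and 2207 CPM in WT. In bulk libraries, fewer cells of a type and less RNA per cell cannot be told apart.

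No transporter gene passed the test between HIP and WT glands. Of the 57 genes, 37 had enough reads to be tested and 20 did not. By limma, with Benjamini-Hochberg adjustment over all 12105 tested genes, 0 of the 37 were called at an adjusted p of 0.05, as were 0.0% of all genes, and the lowest adjusted p of a transporter gene was 0.690. With limma-voom no gene was called either. The genes Slc1a4 and Slc6a6, 2 of 37, were below 0.05 without adjustment, both higher in HIP, beside 6.55% of all tested genes, of which 3.29% were higher and 3.26% lower in HIP. The share of transporter genes is thus near the background. Limma-voom gave the same 2 genes, beside 7.58% of all genes. The median log2 difference, HIP minus WT, which is the scale of all differences given here, was 0.07 over the 37 genes and 0.01 over all tested genes, and 23 of the 37 differences were positive, against 51.1% of all genes.

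**Figure D1:**
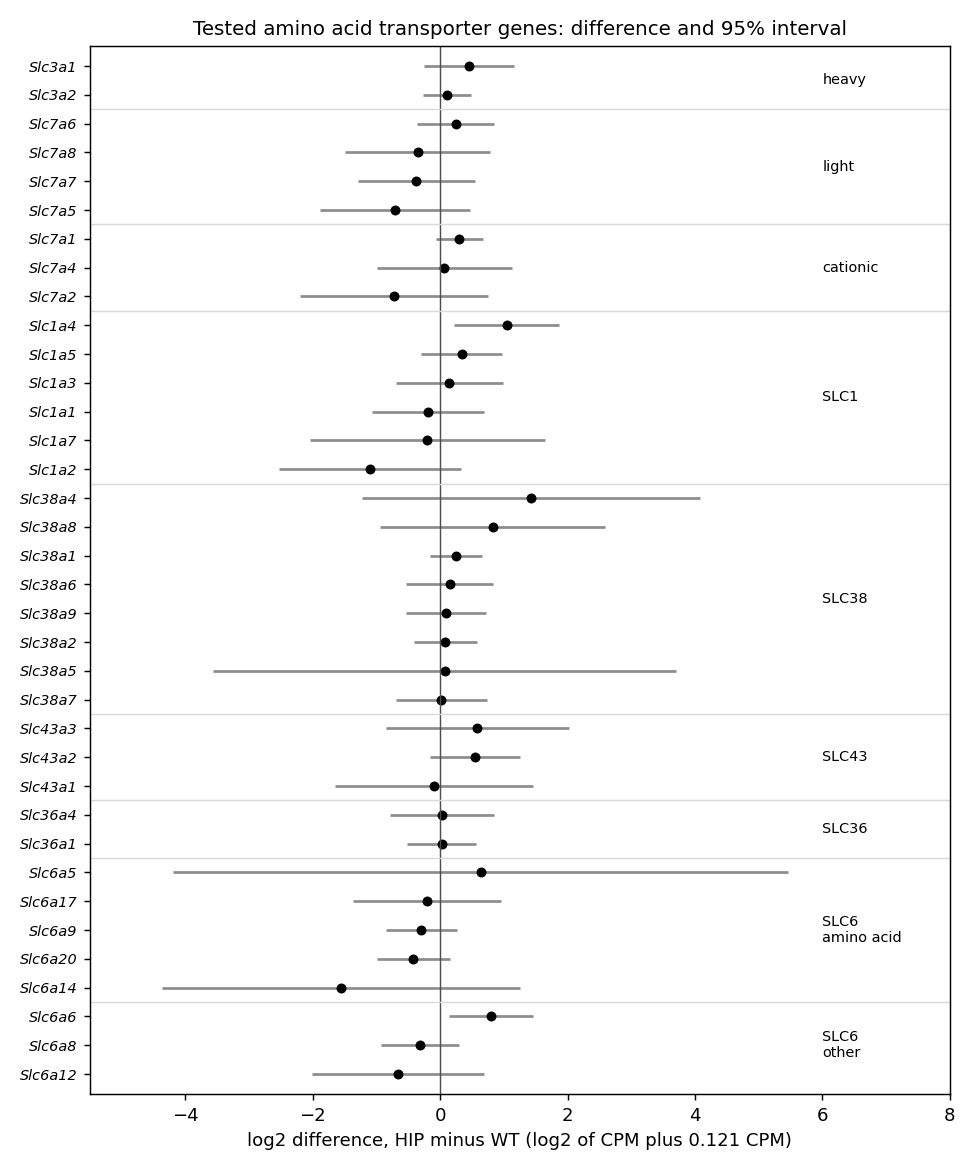
Log2 difference between HIP and WT (HIP minus WT, horizontal axis, on the scale of log2 of CPM plus 0.121 CPM) for 36 of the 37 tested genes, grouped by role. Points are limma estimates from 3 libraries per group and bars are 95% intervals, unadjusted for the number of genes; the intervals of Slc1a4 and Slc6a6 lie above 0 and the other 34 include 0.

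The upstream sequences of 4 genes are shown because the text returns to them: Slc1a4, Slc6a6 and Slc7a1 are the 3 genes of lowest unadjusted p with an entry in the sequence table, and Slc38a1 shares a motif with 2 of them. They are the 250 bases before the start of transcription in RefSeq, build GRCr8, which is not the build of the deposited values. Slc1a4 is at chr14:98761563-98761812 on the minus strand, Slc7a1 at chr12:11664238-11664487 on the plus strand, Slc38a1 at chr7:129681402-129681651 on the minus strand and Slc6a6 at chr4:125752252-125752501 on the plus strand. Capitals mark the letters TGATGNAAN, searched on both strands, which spell the C/EBP-ATF response element, known as a binding site of ATF4 in the response to amino acid shortage.
Slc1a4: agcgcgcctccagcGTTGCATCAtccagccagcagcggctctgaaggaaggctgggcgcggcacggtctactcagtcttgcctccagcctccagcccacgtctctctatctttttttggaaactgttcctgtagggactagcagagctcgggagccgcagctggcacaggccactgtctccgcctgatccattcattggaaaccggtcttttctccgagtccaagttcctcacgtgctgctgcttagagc
Slc7a1: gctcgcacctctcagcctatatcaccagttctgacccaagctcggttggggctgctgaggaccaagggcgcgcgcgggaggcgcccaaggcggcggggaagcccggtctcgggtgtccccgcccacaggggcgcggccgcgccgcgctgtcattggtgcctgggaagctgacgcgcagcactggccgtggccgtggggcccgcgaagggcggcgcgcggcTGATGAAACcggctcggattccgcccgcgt
Slc38a1: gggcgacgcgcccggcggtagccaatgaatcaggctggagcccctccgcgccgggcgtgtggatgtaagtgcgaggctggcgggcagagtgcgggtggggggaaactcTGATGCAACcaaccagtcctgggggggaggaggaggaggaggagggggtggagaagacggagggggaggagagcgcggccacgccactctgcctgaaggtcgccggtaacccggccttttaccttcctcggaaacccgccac
Slc6a6: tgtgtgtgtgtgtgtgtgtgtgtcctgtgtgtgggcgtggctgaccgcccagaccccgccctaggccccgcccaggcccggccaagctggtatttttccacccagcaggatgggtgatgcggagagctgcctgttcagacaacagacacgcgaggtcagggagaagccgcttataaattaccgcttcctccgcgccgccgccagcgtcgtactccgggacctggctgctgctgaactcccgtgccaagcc

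Among the 43 genes with an entry Slc1a4, Slc7a1 and Slc38a1 held the motif, in 3 of 47 windows or 6.38%, beside 3.38% of all 33469 windows of this length. In Slc1a4 the match reads GTTGCATCA, the reverse complement of the motif, and starts 236 bases before the start site. The match TGATGAAAC of Slc7a1 starts 30 bases before its start site, and TGATGCAAC of Slc38a1 starts 142 bases before. A match describes these letters and not a working site, and the motif was chosen with the values in view.

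Slc1a4, a sodium-dependent exchanger of alanine, serine and cysteine, had the lowest p of the transporter genes. Its level was 81.5, 66.4 and 35.2 CPM in HIP30, HIP2 and HIP3, against 20.6, 29.4 and 35.7 CPM in WT26, WT1 and WT4. HIP30 and HIP2 were high, whereas HIP3 lay just below WT4, so the groups overlapped. The means were 61.0 ± 23.6 CPM in HIP and 28.6 ± 7.60 CPM in WT (SD, n = 3 each), a log2 difference of 1.04 (standard error 0.36) with a 95% interval of 0.22 to 1.86 (limma, unadjusted p = 0.0190, adjusted p = 0.690). With each library left out in turn the difference ran from 0.80 to 1.39, and with the libraries numbered 1 to 4 only (without HIP30 and WT26) it was 0.58.

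Slc6a6, the taurine transporter, was read at 228, 246 and 148 CPM in the libraries HIP30, HIP2 and HIP3, against 80.9, 143 and 137 CPM in WT26, WT1 and WT4. All 3 HIP libraries stood above all 3 WT libraries, though HIP3 only narrowly. The means of 208 ± 52.1 CPM in HIP and 120.1 ± 34.0 CPM in WT (SD, n = 3 each) gave a log2 difference of 0.80 (standard error 0.29) with a 95% interval of 0.14 to 1.46 (limma, unadjusted p = 0.0234, adjusted p = 0.690). With libraries left out it ran from 0.54 to 1.02, and without both HIP30 and WT26 it was 0.46.

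Slc43a2, a facilitative carrier of large neutral amino acids, was also higher in HIP30 and HIP2 than in HIP3. It stood at 210.2, 165 and 101 CPM in the libraries HIP30, HIP2 and HIP3, against 81.7, 99.1 and 139 CPM in WT26, WT1 and WT4. HIP3 lay within the WT range. Its log2 difference was 0.54 (limma, standard error 0.31, adjusted p = 0.690), from 0.32 to 0.83 with single libraries left out and 0.14 without both HIP30 and WT26.

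Summed markers of fibroblast and stellate cells, and of macrophages mainly through Mpeg1, also set HIP30 and HIP2 apart. Of the 15 tested macrophage and myeloid markers 14 had a positive difference, and their sum was 2591, 2581 and 713 CPM in HIP30, HIP2 and HIP3, against 479.8, 710.5 and 935 CPM in WT26, WT1 and WT4. Mpeg1, which encodes a pore-forming protein of macrophages, made up most of the sums in HIP30 and HIP2, with 1929, 1945 and 144 CPM in HIP30, HIP2 and HIP3, against 0, 181 and 185 CPM in WT. The general leukocyte marker Ptprc, by contrast, stood at 67.9 to 74.4 CPM in HIP and 54.4 to 90.7 CPM in WT. The 15 markers deviated from their WT mean by a median (log2) of 0.96, 0.76 and 0.08 for HIP30, HIP2 and HIP3. For WT26, WT1 and WT4 it was -0.79, -0.23 and 1.17, so WT4 was the highest by this measure. For fibroblast and stellate cell markers the difference was negative in all 14 tested, with sums of 706 to 2099 CPM in HIP and 2095 to 2542 CPM in WT. The 13 tested markers of islet endocrine cells other than beta cells all had a positive difference. The list summed to 750.5, 496 and 274 CPM in HIP30, HIP2 and HIP3, against 82.5, 129 and 474 CPM in WT26, WT1 and WT4. HIP2 was thus close to WT4. By the median deviation from the WT mean, WT4 was the highest library for this list and HIP2 the lowest in HIP. By that measure the islet list did not set HIP30 and HIP2 apart. The part of these cells, or of the low proliferation markers in HIP30 and HIP2, in the transporter values was not tested.

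**Figure D2:**
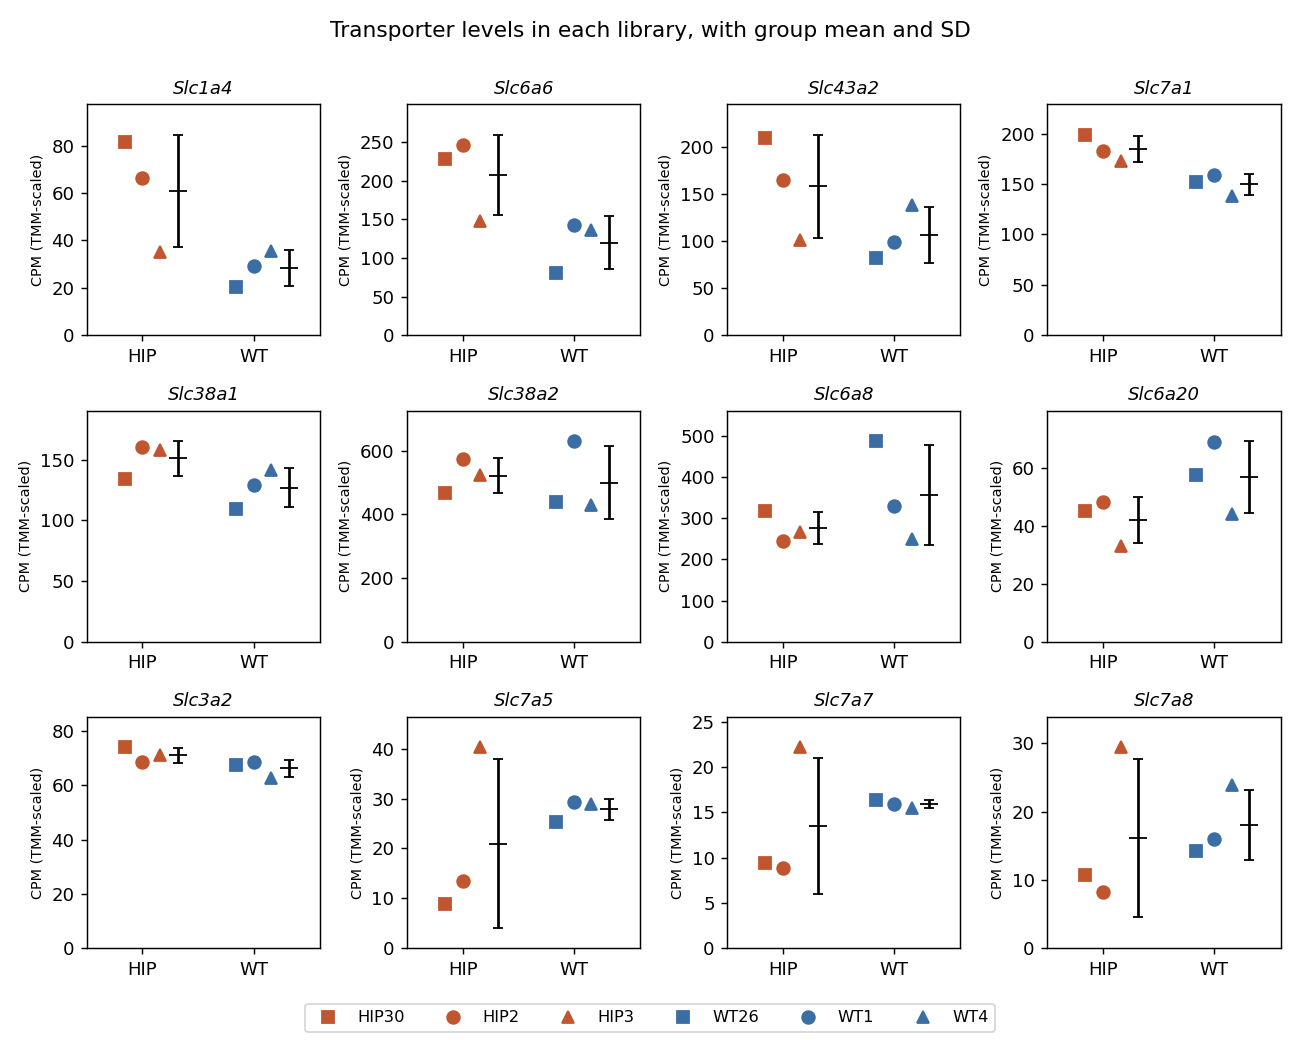
Levels of 12 transporter genes (vertical axis, TMM-scaled CPM, from 0) in the 3 HIP and 3 WT libraries, each library by its own symbol, with group mean and SD in black. In Slc1a4, Slc6a6 and Slc43a2 HIP30 and HIP2 are the highest libraries and HIP3 is within or next to the WT range, whereas Slc7a5, Slc7a7 and Slc7a8 are lowest in HIP30 and HIP2 and highest in HIP3.

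Both heavy chains had positive differences that did not pass the test. Slc3a2, the partner of most light chains, stood at 74.0, 68.5 and 71.0 CPM in the libraries HIP30, HIP2 and HIP3, against 67.4, 68.7 and 62.6 CPM in WT26, WT1 and WT4. Its log2 difference was 0.10 with a 95% interval of -0.27 to 0.48 (limma, adjusted p = 0.913). Slc3a1, the heavy chain of the cystine and basic amino acid exchanger of kidney and gut, had 27.3, 25.1 and 21.0 CPM in the HIP libraries, against 12.2, 19.6 and 23.2 CPM in the WT libraries. WT26 alone stood well below the rest, and the difference of 0.45 (standard error 0.31, adjusted p = 0.740 by limma) was 0.19 without it.

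Of the 9 light chains, 4 were tested and 3 of these differed negatively (median -0.36 over the 4). The median was -0.85 without HIP3, -0.17 without HIP30 and -0.06 without HIP2, where 2 of the 4 were negative. Slc7a5, the main carrier of leucine and other large neutral amino acids in dividing cells, stood at 8.94, 13.6 and 40.3 CPM in the libraries HIP30, HIP2 and HIP3, against 25.4, 29.2 and 28.9 CPM in WT26, WT1 and WT4. The WT libraries were close together, while HIP30 and HIP2 lay below all of them and HIP3 above all of them. The HIP spread of 16.9 CPM (SD, n = 3) against 2.12 CPM in WT left a log2 difference of -0.71 (limma, standard error 0.51, adjusted p = 0.759). It was -1.33 without HIP3 (adjusted p = 0.145), -0.24 without HIP30 and -0.54 without HIP2.

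Slc7a7, which swaps basic for neutral amino acids, and Slc7a8, a second carrier of neutral amino acids, were likewise low in HIP30 and HIP2. Slc7a7 had 9.42, 8.85 and 22.2 CPM in HIP30, HIP2 and HIP3, against 16.4, 15.9 and 15.5 CPM in WT26, WT1 and WT4. Slc7a8 had 10.8, 8.18 and 29.4 CPM in the HIP libraries, against 14.2, 15.97 and 23.9 CPM in the WT libraries. For both, HIP30 and HIP2 were below the WT range and HIP3 above it, and the log2 differences were -0.37 and -0.35 (limma, adjusted p = 0.854 and 0.896). The difference of Slc7a7 was -0.80 without HIP3, -0.18 without HIP30 and -0.14 without HIP2. That of Slc7a8 was -0.90 without HIP3, -0.17 without HIP30 and 0.02 without HIP2. The proliferation markers given above were also lower in HIP30 and HIP2 than in HIP3, and their part in these values was not tested.

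Slc7a6, a close relative of Slc7a7, did not share this pattern. It stood at 32.3, 20.4 and 23.3 CPM in the libraries HIP30, HIP2 and HIP3, against 19.5, 22.3 and 21.2 CPM in WT, so HIP30 and HIP3 lay above the WT range and HIP2 within it. The other 5 light chains, among them the Slc3a1 partner Slc7a9 and the small neutral amino acid carrier Slc7a10, had at most 10 reads in any library.

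Slc7a1, the main carrier of arginine and lysine in most cells, was even within each group. Its level was 199, 182 and 173 CPM in HIP30, HIP2 and HIP3, against 152, 159 and 138 CPM in WT26, WT1 and WT4. The groups did not overlap and the SDs were 13.1 and 10.5 CPM (n = 3 each). Its log2 difference was 0.30 (standard error 0.16) with a 95% interval of -0.06 to 0.67 (limma, unadjusted p = 0.0925, adjusted p = 0.690), and it ran from 0.25 to 0.34 with libraries left out. Slc7a2, a basic amino acid carrier induced in inflammation, had 2.86 to 5.45 CPM in HIP and 3.22 to 5.10 CPM in WT26 and WT1, but 16.7 CPM in WT4.

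Groups did not overlap in 3 of the 37 tested genes, all with HIP above WT, among them Slc6a6 and Slc7a1. Among all tested genes the groups did not overlap in 9.59%, with HIP above WT in 5.3% and below it in 4.29%. Scaled by library totals alone, the groups of Slc3a2 and of Slc1a5 separated, with HIP above WT. Slc6a6 and Slc7a1 stayed apart under that scaling, but not all of the 3 genes did. It moved the median difference of all tested genes from 0.01 to 0.08, and the share of all genes without overlap was not counted there.

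Among the other SLC1 genes, Slc1a5, the glutamine exchanger, stood at 18.7, 16.7 and 23.2 CPM in the libraries HIP30, HIP2 and HIP3, against 14.7, 17.8 and 13.6 CPM in WT, a log2 difference of 0.34 (standard error 0.27, adjusted p = 0.795 by limma). Slc1a1, a glutamate and cysteine carrier of epithelia and neurons, was even in HIP at 30.02 to 36.2 CPM and wide in WT at 57.6, 45.7 and 19.9 CPM. Slc1a2, the glutamate carrier of astrocytes, had 0.912, 1.59 and 3.92 CPM in HIP30, HIP2 and HIP3, against 5.49, 3.501 and 3.34 CPM in WT26, WT1 and WT4. HIP30 and HIP2 were low, and HIP3 stood within the WT range. The difference of Slc1a2 was -1.10 (limma, standard error 0.62, adjusted p = 0.690).

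All 8 tested genes of the SLC38 family, sodium-coupled or lysosomal carriers of neutral amino acids, had a positive difference, from 0.02 to 1.42 with a median of 0.12, and none was called by limma. All 8 stayed positive under both other scalings, but 4 of the 8 were positive without WT26, 6 without WT1, HIP2 or HIP3, and 7 without WT4 or with a pseudocount of 10 reads. Slc38a2, the carrier of alanine and glutamine that cells induce when amino acids run short, stood at 465, 575 and 525 CPM in the libraries HIP30, HIP2 and HIP3, against 439, 630.3 and 429 CPM in WT26, WT1 and WT4. Its groups overlapped fully, with a difference of 0.08 and a 95% interval of -0.42 to 0.58. Slc38a1, a glutamine carrier, had 134, 160.3 and 158 CPM in the HIP libraries, against 109.6, 129 and 142 CPM in the WT libraries, a difference of 0.25 (standard error 0.18, adjusted p = 0.746 by limma).

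Slc38a9, the lysosomal arginine sensor of mTORC1, stood at 23.1 to 34.6 CPM in HIP and 20.9 to 31.2 CPM in WT. Slc36a1, a proton-coupled carrier of the lysosome, stood at 23.5 to 30.6 CPM in HIP and 22.6 to 28.3 CPM in WT. Their differences were 0.09 and 0.02 (limma, adjusted p = 0.958 and 0.986).

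Slc38a5, a glutamine carrier found in pancreatic endocrine and acinar cells, varied more between libraries of a group than between the group means of its log2 values. It had 6.62 CPM in HIP3 and 15.3 CPM in WT4, but 0.426 and 0.672 CPM in HIP30 and HIP2, and 0.417 and 0.184 CPM in WT26 and WT1. HIP3 and WT4 are also the libraries with the highest sums of beta cell markers, given above, and of the 18 acinar markers, at 177 CPM in HIP3 and 141 CPM in WT4, against 64.1 to 78.8 CPM in HIP30 and HIP2 and 65.2 to 75.6 CPM in WT26 and WT1. The part of these cells in the values of Slc38a5, or of Slc7a2 in WT4, was not tested.

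In the SLC6 family, Slc6a8, the creatine transporter, stood at 319, 244 and 268 CPM in the libraries HIP30, HIP2 and HIP3, against 488, 330.1 and 249.6 CPM in WT26, WT1 and WT4. Only WT26 and WT1 lay above all HIP libraries, and the difference of -0.32 (standard error 0.26, adjusted p = 0.805 by limma) was -0.06 without WT26. Slc6a20, a carrier of proline and related imino acids, had 45.1, 48.1 and 33.1 CPM in the HIP libraries, against 57.4, 69.0 and 44.0 CPM in the WT libraries. WT4 overlapped the HIP range, and the difference was -0.42 (limma, standard error 0.25, adjusted p = 0.697).

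Slc6a14, a broad amino acid carrier of mucosal epithelia, had 0.486, 11.9 and 11.6 CPM in HIP30, HIP2 and HIP3, against 9.66, 39.6 and 5.47 CPM in WT26, WT1 and WT4. HIP30 was lowest and WT1 highest, and without HIP30 the difference of -1.56 was -0.12. Slc6a9, the glycine carrier of many tissues, stood at 27.7 to 35.0 CPM in HIP and 29.8 to 47.2 CPM in WT. The neuronal glycine carrier Slc6a5 had 33.6 CPM in HIP3 but 0 and 0.427 CPM in HIP30 and HIP2, and 0, 1.11 and 3.89 CPM in WT26, WT1 and WT4. The 10 neural and glial markers summed to 56.7, 58.6 and 64.1 CPM in HIP and 34.9, 43.1 and 92.5 CPM in WT. The 6 tested markers deviated from their WT mean by a median (log2) of 0.17, 0.30 and 1.11 for HIP30, HIP2 and HIP3, against -0.69, -0.13 and 1.01 for WT26, WT1 and WT4, so HIP3 and WT4 were the highest. The part of neural cells in that value was not tested.

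**Figure D3:**
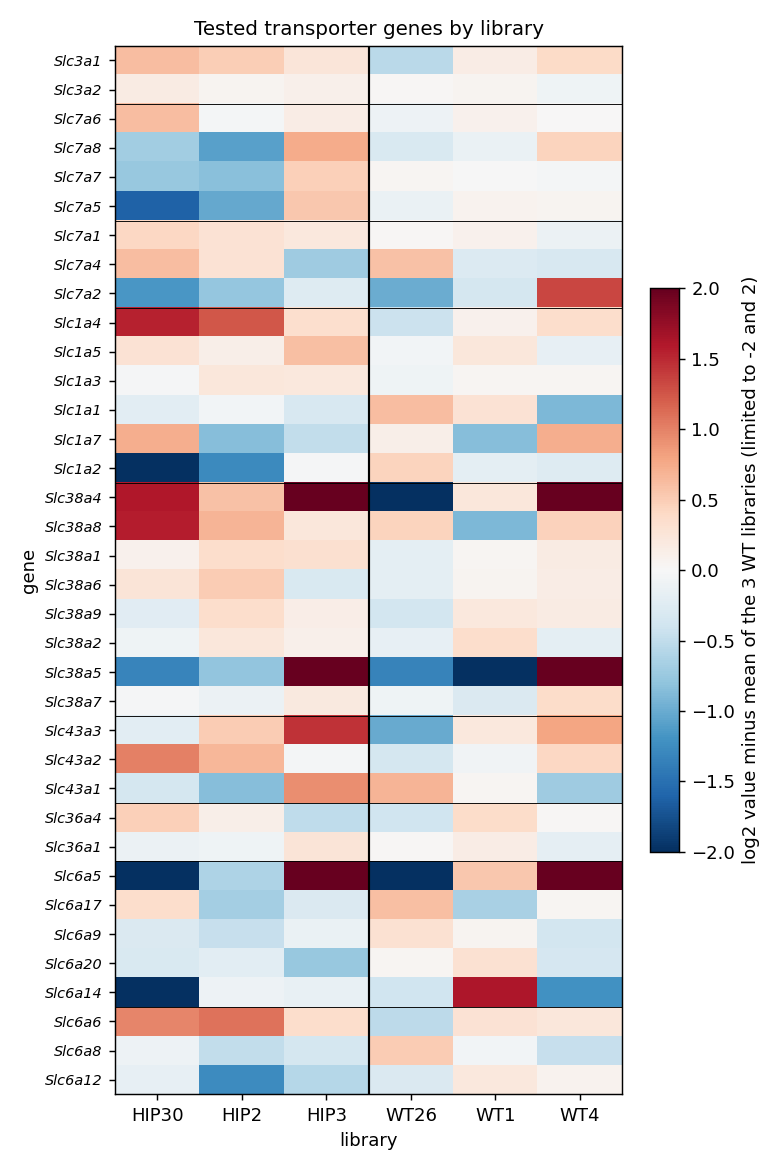
Log2 value of 36 of the 37 tested genes (rows, grouped by role) in each library (columns, HIP left of WT), minus the mean of the 3 WT libraries, with colours limited to -2 and 2. HIP30 and HIP2 share the strong colours of Slc1a4, Slc6a6 and Slc7a5, while HIP3 and WT4 share those of Slc38a5.

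The 20 genes below the filter had at most 49 reads in any library, and 8 of them had no read in either HIP30 or WT26. The highest value among them was that of Slc6a19, the neutral amino acid carrier of gut and kidney, with 2 reads in HIP3 and 0 in HIP30 and HIP2, against 49 reads in WT4 and 0 in WT26 and WT1. Slc38a3, a glutamine carrier of liver, had 14, 44 and 5 reads in HIP30, HIP2 and HIP3, against 6, 3 and 5 reads in WT26, WT1 and WT4. Slc6a4, the serotonin transporter, had 6 to 10 reads in HIP, against 43 reads in WT4 and 4 and 2 in WT26 and WT1. The noradrenaline and dopamine carriers Slc6a2 and Slc6a3 had at most 18 and 2 reads. A count of 0 allows up to 3 reads, or 0.171 to 0.198 CPM before scaling, which covers counting error only.

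Genes that act with the carriers were counted in lists, none with a gene called by limma over all genes (adjusted p = 0.690 or higher). Of 15 other amino acid, peptide and related carriers 9 had a positive difference, with a median of 0.22. The lowest p among them was that of Slc16a10, an aromatic amino acid carrier, at 10.1, 9.83 and 4.11 CPM in the libraries HIP30, HIP2 and HIP3, against 0, 2.09 and 5.05 CPM in WT26, WT1 and WT4. Slc25a44, which takes branched-chain amino acids into mitochondria, differed by 0.35. Of 7 chaperones and regulators of the carriers 3 were positive, with a median of -0.08, and Arl6ip5 and Nedd4 differed by -0.34 and -0.19.

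Of 28 genes of amino acid sensing upstream of mTORC1, 12 were positive and 16 negative, with a median of -0.01. Sesn2, the leucine sensor, stood at 39.8, 38.8 and 32.1 CPM in the libraries HIP30, HIP2 and HIP3, against 18.9, 18.4 and 29.4 CPM in WT26, WT1 and WT4, without overlap, and differed by 0.75 with a standard error of 0.26 (limma, unadjusted p = 0.0215, adjusted p = 0.690). Its relative Sesn1 and the GTPase gene Rragd differed by 0.84 and 0.9998, with HIP3 at 33.9 and 9.07 CPM, below WT4 at 44.6 and 16.4 CPM.

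Of 18 tested genes of the response to amino acid shortage, which runs from the kinase GCN2 to the transcription factor ATF4, 7 were positive and 11 negative, with a median of -0.07. Eif2ak4, which encodes GCN2, stood at 229, 196 and 161 CPM in the libraries HIP30, HIP2 and HIP3, against 123, 124 and 132 CPM in WT26, WT1 and WT4. The groups did not overlap, and the difference was 0.62 with a standard error of 0.18 (limma, unadjusted p = 0.00959, adjusted p = 0.690). Atf4 itself had 205 to 273 CPM in HIP and 198 to 369.6 CPM in WT, a difference of -0.11. Asns, an ATF4 target that makes asparagine, differed by 0.41, and Psat1, another target in serine synthesis, by -1.45, with 3.65, 5.19 and 28.3 CPM in HIP30, HIP2 and HIP3, against 25.7, 32.1 and 13.98 CPM in WT. Vldlr, a lipoprotein receptor gene of the same list, differed by -0.89.

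Of 20 cytosolic aminoacyl-tRNA synthetase genes 7 were positive, with a median of -0.07, and Mars, Lars and Hars, which charge methionine, leucine and histidine, differed by 0.20, -0.19 and -0.18. Of 15 enzymes of glutamine, glutamate and branched-chain amino acids 6 were positive, with a median of -0.04. Got2, the mitochondrial aspartate aminotransferase, stood at 74.9 ± 6.29 CPM in HIP and 106 ± 8.21 CPM in WT (SD, n = 3 each), without overlap, whereas the alanine aminotransferase gene Gpt2 and the branched-chain aminotransferase gene Bcat1 did not overlap in the other direction. Gpt2 averaged 14.6 ± 6.33 CPM in HIP and 7.01 ± 0.363 CPM in WT, and Bcat1 2.66 ± 0.278 CPM in HIP and 1.19 ± 0.613 CPM in WT (SD, n = 3 each). Of 6 taurine and creatine enzymes 3 were positive. Cdo1, which starts taurine synthesis from cysteine, had 1.88, 3.97 and 1.84 CPM in HIP30, HIP2 and HIP3, against 7.51, 9.64 and 7.42 CPM in WT26, WT1 and WT4. All HIP libraries lay below all WT libraries, with a difference of -1.71 and a standard error of 0.46 (limma, unadjusted p = 0.00592, adjusted p = 0.690). Gamt, of creatine synthesis, and the creatine kinase gene Ckb differed by 0.42 and -0.48.

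The number of transporter genes at an unadjusted p under 0.05 depended on the libraries included, and the set of tested genes changed with them. Without HIP3 it was 7 of 38, beside 15% of all genes, and the 7 were Slc1a4, Slc6a6 and Slc43a2, higher in HIP, and Slc7a5, Slc7a7, Slc7a8 and Slc1a2, lower in HIP. Without WT4 it was 5 of 38, beside 13.4% of all genes. It was 2 of 39 without WT1, beside 2.78% of all genes. It was 0 of 38 without WT26, HIP30 or HIP2, beside 2.8%, 2.25% and 1.92% of all genes. With the libraries numbered 1 to 4 only it was 0 of 36, beside 1.22% of all genes, and with sample quality weights 5 of 37, beside 19.9% of all genes. The lowest adjusted p of a transporter gene was 0.145 without HIP3 and 0.306 without WT4 (limma), so none was called there either.

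**Figure D4:**
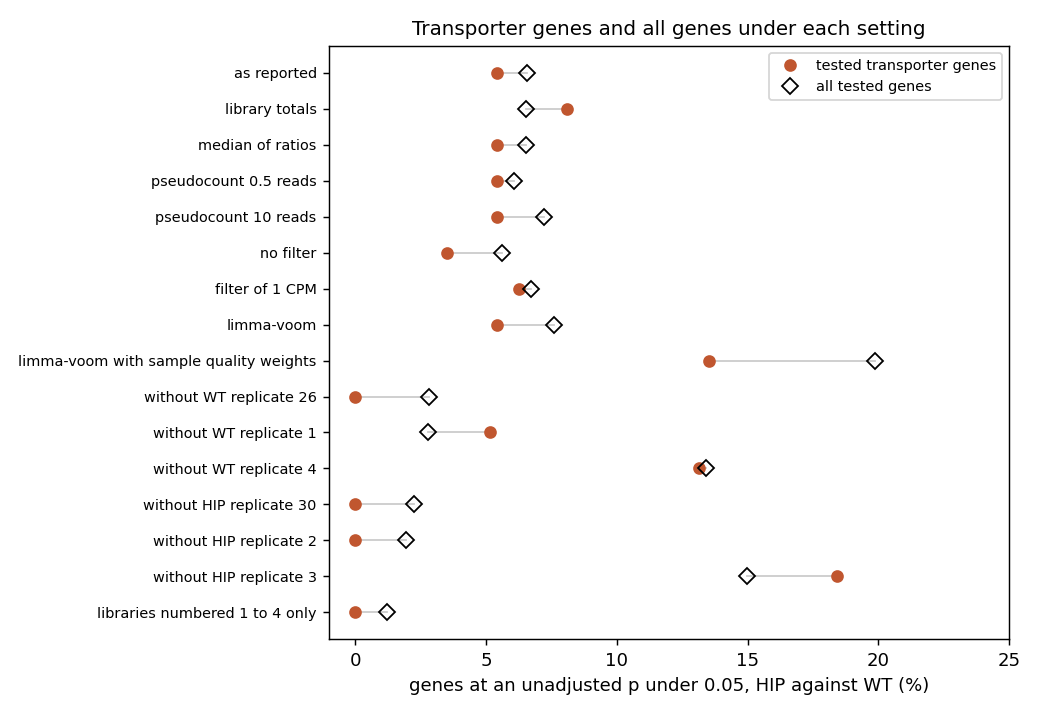
Share of genes at an unadjusted p under 0.05 (horizontal axis, percent) among the tested transporter genes (filled) and among all tested genes (open), for the values as reported and each of 15 alternatives (rows). Both shares are higher without HIP3, without WT4 and with sample quality weights than as reported.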

How the data were processed

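Laser-captured glands gave 6 total RNA libraries, 3 HIP and 3 WT, grouped by title. The submitters' processing notes name STAR, HTSeq, edgeR and limma, and the build rn5, without versions. No source used here gives strandedness, so reads of overlapping or antisense genes could not be separated. The authors deposited, per library, log2 values of CPM with a prior. Whole reads were recovered from these for 100% of values within 0.1 reads, and the columns fit a prior of 0.25 reads. The count test first planned was replaced, as the deposited values are log2.

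Reads were scaled by TMM factors (trims of 30% and 5%). A gene entered the test with 10 reads or more, scaled to the median library (0.610 CPM), in any 3 libraries and 15 reads or more overall. With libraries left out, the filter needed only as many libraries as the smaller group held. Tests were run with limma 3.58.1 in R 4.3.3, with a trend, on log2 values after adding 0.121 CPM, equal to 2 reads of an average library, which understates changes of low genes. The 4 rows with repeated symbols were left out. The steps were tested on simulated reads with changes larger than that of Slc1a4 and no differences in cell content. That test does not show whether smaller changes would be called. The members and lists were chosen with earlier results of these data known. Genes named were those over 50 CPM on average, the 10 with the lowest p, heavy chains, tested light chains and up to 3 per list, some of which are not reported here; other genes named were chosen after their values were seen. Of the 57 genes 56 matched a current RefSeq symbol and 1 a synonym. Figures used matplotlib 3.10.9.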

Additional observations from a re-analysis of the deposited data

How the results depend on the processing

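Adjusted calls stayed at 0, for all genes and for the transporter genes, under all 15 alternatives: other scalings, pseudocounts and filters, limma-voom, alone or with weights for sample quality, each library left out, and the libraries numbered 1 to 4 only. The number of transporter genes at an unadjusted p under 0.05 was 2 as reported. Scaled by library totals it was 3 of 37, with Slc7a1 added, beside 6.51% of all genes. It was 5 of 37 with sample quality weights, beside 19.9% of all genes. With the libraries numbered 1 to 4 only it was 0 of 36, beside 1.22% of all genes. When single libraries were left out it lay between 0 and 7, beside the shares given above. Fewer samples were fitted, and the filter needed fewer libraries, in the last 2 kinds of setting, and otherwise the cause was not tested. The median log2 difference of the transporter genes kept its sign under all 15 alternatives and moved by less than the spread between libraries. Of 16 transporter genes followed singly 14 kept their sign throughout. The sign of Slc38a2 turned with libraries left out, to -0.0174 without WT4 and -0.000996 without WT26 (highest 0.25 without WT1), and that of Slc7a8 turned to 0.0215 without HIP2 (lowest -0.90 without HIP3). No paired analysis was possible because the groups share no replicate numbers. With 3 libraries per group, any difference inside the printed 95% intervals remains possible.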
